A study of Glycine max with 4 samples.

Results

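Levels of 5 soybean genes annotated as gibberellin-regulated family proteins were examined in leaves after short-term phosphate (Pi) deprivation. The genes are Glyma.06G044400, Glyma.06G185300, Glyma.06G193800, Glyma.05G034500 and Glyma.17G092800, 5 of the 39505 loci of the deposited table. They were selected on their difference between the groups in these same libraries, as the gibberellin-regulated genes that the study's own test marked as changed. Their difference between the groups is therefore given as a description, with no test. Pi-deprived leaves (PDL-1 and PDL-2) came from seedlings kept for 24 h at 0 mM KH2PO4, with K2SO4 supplied in its place, so sulfate differed between the groups as well. Pi-sufficient leaves (PSL-1 and PSL-2) came from seedlings kept for 24 h at 0.5 mM KH2PO4. All plants were of the cultivar Williams 82, from which the soybean reference genome was made, grown hydroponically for 18 days (the labels give this age as days after germination). Each library pooled the first trifoliate leaves of 3 plants, so n = 2 in each group. The values are FPKM, fragment numbers scaled by transcript length and by the mapped total of the library, as estimated by the authors for each library. Being scaled by length, they allow levels of different genes to be set side by side.

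Gibberellins are plant hormones that promote stem and leaf growth. When the hormone binds its receptor, DELLA proteins of the GRAS family, which hold growth genes in check, are degraded. The tomato gene GAST1 was found as a transcript that accumulates after gibberellin is supplied, and its relatives form the GAST1 or GASA family. They encode small, secreted, cysteine-rich peptides. In Arabidopsis members have been tied to cell expansion, flowering and redox state, and the potato snakins of this family act against microbes. The description of a soybean gene as gibberellin-regulated rests on this relationship, and these data hold no measurement of the hormone. The roles of the 5 soybean genes themselves are not described here.

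The 5 genes lay on 3 chromosomes of the Gmax2.0 genome. Glyma.06G044400 spans chromosome 6 from 3381874 to 3382877, Glyma.06G185300 from 16098921 to 16099694 and Glyma.06G193800 from 17278277 to 17279595. Glyma.05G034500 spans chromosome 5 from 3021910 to 3023093, and Glyma.17G092800 spans chromosome 17 from 7253748 to 7255057. The spans run from 774 to 1319 bp, and the table names 1 annotated transcript for each gene except Glyma.17G092800, which has 2.

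All 5 genes averaged more FPKM in Pi-deprived leaves. Glyma.06G044400 had 611 and 295 FPKM in PDL-1 and PDL-2, against 99.2 and 87.8 FPKM in PSL-1 and PSL-2. The groups did not overlap, the Pi-sufficient libraries were close to each other, and PDL-1 was 2.07 times PDL-2. It averaged 453 ± 223 FPKM in Pi-deprived leaves and 93.5 ± 8.06 FPKM in Pi-sufficient leaves (SD, n = 2 each), a ratio of means of 4.85. The log2 fold change of FPKM + 0.1, PDL over PSL, was 2.19 with a standard error of 0.38. It was the most abundant of the 20 family loci in Pi-deprived leaves and the third in Pi-sufficient leaves. In Pi-deprived leaves 98.9% of all loci in the table had a lower mean FPKM.

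**Figure D1:**
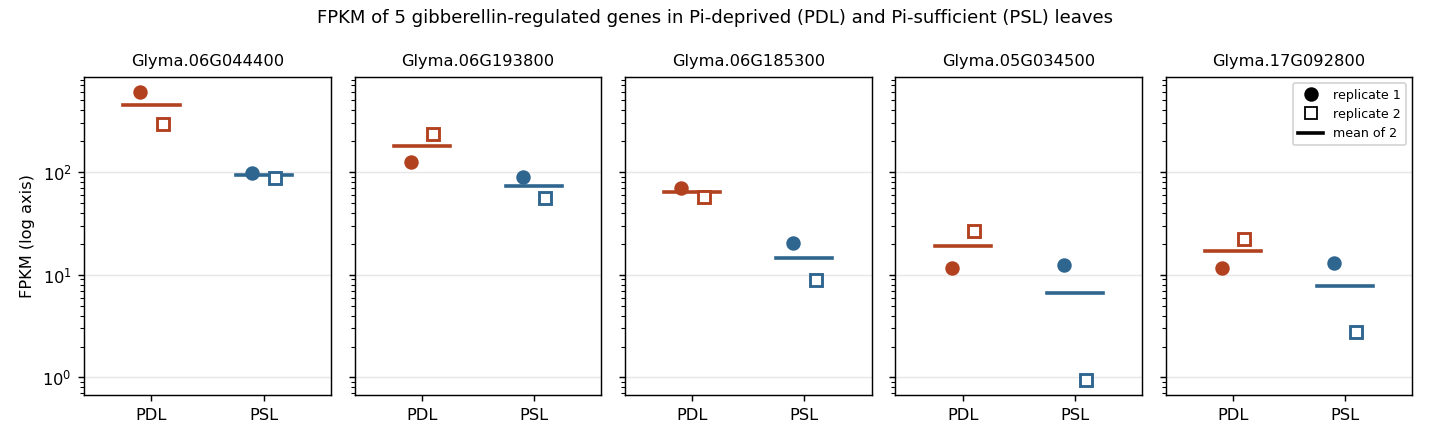
FPKM of the 5 genes in each library, on a log axis, with Pi-deprived leaves (PDL) left of Pi-sufficient leaves (PSL). Circles are replicate 1, squares replicate 2 and lines the mean of the 2 libraries. Both PDL libraries lie above both PSL libraries in 3 genes, and in Glyma.05G034500 and Glyma.17G092800 the PSL-1 value lies among the PDL values.

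Glyma.06G185300 had 70.6 and 57.4 FPKM in PDL-1 and PDL-2, against 20.3 and 8.82 FPKM in PSL-1 and PSL-2. Here the Pi-deprived libraries were close and the Pi-sufficient ones lay 2.30-fold apart, and the groups did not overlap. The means were 64.0 ± 9.34 FPKM in Pi-deprived leaves and 14.6 ± 8.14 FPKM in Pi-sufficient leaves (SD, n = 2 each), with a log2 fold change of 2.24 and a standard error of 0.43. Glyma.06G193800 had 126 and 234 FPKM in PDL-1 and PDL-2, against 89.5 and 55.8 FPKM in PSL-1 and PSL-2. The groups again did not overlap, but the lower Pi-deprived library exceeded the higher Pi-sufficient one by only 0.49 on the log2 scale, against 1.57 for Glyma.06G044400 and 1.49 for Glyma.06G185300. Glyma.06G193800 averaged 179.9 ± 76.6 FPKM in Pi-deprived leaves and 72.6 ± 23.8 FPKM in Pi-sufficient leaves (SD, n = 2 each), with a log2 fold change of 1.28 and a standard error of 0.40.

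In Glyma.05G034500 and Glyma.17G092800 the groups overlapped. Glyma.05G034500 had 11.8 and 26.5 FPKM in PDL-1 and PDL-2, against 12.3 and 0.933 FPKM in PSL-1 and PSL-2. PDL-1 and PSL-1 were almost level, so the difference of the means rested on a high PDL-2 and a low PSL-2. Its log2 fold change was 2.31 with a standard error of 1.30, on this scale the largest value and the largest error of the 5 genes. Its ratio of means was 2.89, below those of Glyma.06G044400 (4.85) and Glyma.06G185300 (4.39). Glyma.17G092800 had 11.6 and 22.2 FPKM in PDL-1 and PDL-2, against 13.0 and 2.75 FPKM in PSL-1 and PSL-2, the same order of the libraries except that PSL-1 exceeded PDL-1 by slightly more. Its log2 fold change was 1.40 with a standard error of 0.83. Leaving out PSL-2 brought the log2 fold change of Glyma.05G034500 to 0.52 and that of Glyma.17G092800 to 0.30, whereas leaving out PSL-1 brought them to 4.11 and 2.50.

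The order of the levels was clearer in Pi-deprived than in Pi-sufficient leaves. In Pi-deprived leaves Glyma.06G044400 was followed by Glyma.06G193800, Glyma.06G185300, Glyma.05G034500 and Glyma.17G092800, and the replicate ranges of neighbours in this order overlapped only between the last pair (19.2 ± 10.4 and 16.9 ± 7.52 FPKM). In Pi-sufficient leaves the ranges of Glyma.06G044400 and Glyma.06G193800 overlapped. Glyma.06G193800 stood 4.98-fold above Glyma.06G185300 with no overlap, and the lower 3 genes could not be ordered beyond the spread of their replicates.

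All 5 genes were tested after the filter on low values (a mean of at least 0.3 FPKM over the 4 libraries), which 32686 loci passed. All 5 had a log2 fold change of at least 1, where 4.2% of the loci tested did, and 3 of the 5 had both PDL libraries above both PSL libraries, where 20.2% of the loci tested did. Since the genes were chosen from this contrast, nothing is read from these counts. On the scale used here the smallest log2 fold change among the 5 was that of Glyma.06G193800 (1.28). Family loci not among the 5 lay on both sides of it. Glyma.04G179500 (1.92) and Glyma.04G169600 (1.35) were among those above, and Glyma.17G237100 (1.23) was next below.

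Replicates of most of the 5 genes lay further apart than those of most loci of like level, taken as the loci outside the family with a mean FPKM within 2-fold. The 2 libraries of Pi-deprived leaves differed by a log2 ratio of 1.05 in Glyma.06G044400, where the median of 1001 such loci was 0.14 and their 95th percentile 0.74. In Glyma.06G193800 they differed by 0.90, against a 95th percentile of 0.65 over 2215 loci. Glyma.05G034500 (1.16) and Glyma.17G092800 (0.94) also lay above the 95th percentile of loci of like level, which was 0.84 and 0.85. Only Glyma.06G185300 (0.30) lay below it. Wide spread was not particular to the 5 genes. The median SD within groups, on the log2 scale, was 0.64 over the 15 other family loci. Of these loci, 3 had 0 FPKM in a library. The median was 0.62 over the 5 genes and 0.20 over all loci tested.

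The Pi-sufficient libraries differed in 1 direction, by more than the Pi-deprived ones in Glyma.05G034500, Glyma.17G092800 and Glyma.06G185300 and by less in Glyma.06G044400 and Glyma.06G193800. PSL-1 was above PSL-2 in 5 of the 5 genes, by log2 ratios of 3.59 in Glyma.05G034500, 2.20 in Glyma.17G092800, 1.20 in Glyma.06G185300, 0.68 in Glyma.06G193800 and 0.18 in Glyma.06G044400. The first 3 of these exceeded the 95th percentile of loci of like level in Pi-sufficient leaves (0.92, 0.93 and 0.78). Over all loci tested PSL-1 was above PSL-2 at 47.5%. In Pi-deprived leaves the genes split: PDL-1 was the higher library in Glyma.06G044400 and Glyma.06G185300, and PDL-2 in the other 3.

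**Figure D2:**
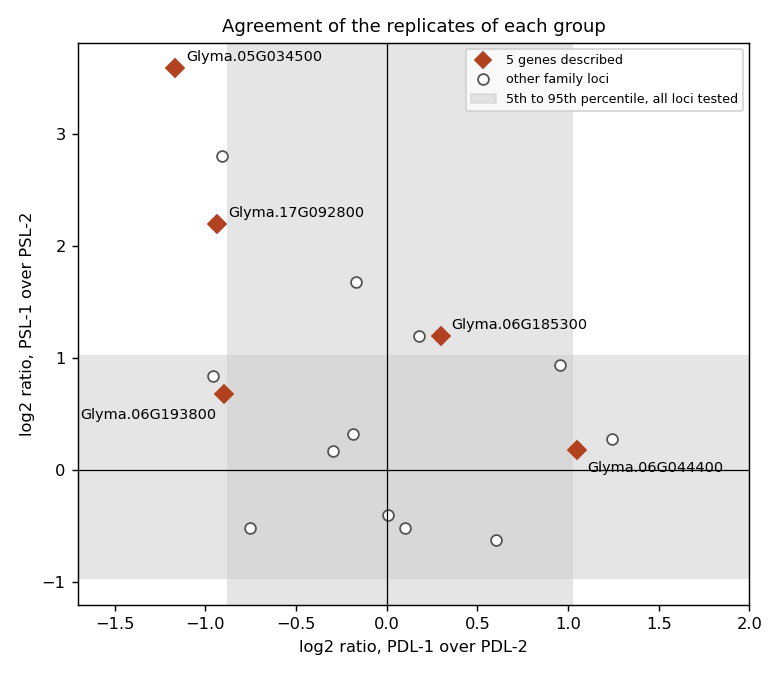
Log2 ratio of the 2 libraries of Pi-deprived leaves (x axis) and of Pi-sufficient leaves (y axis) for the 17 family loci above 0 FPKM in all libraries. Diamonds are the 5 genes, open circles the other family loci, and grey bands span the 5th to 95th percentile of all loci tested (-0.88 to 1.03 on the x axis and -0.97 to 1.03 on the y axis). Glyma.05G034500, Glyma.17G092800 and 1 other locus, Glyma.09G238300, lie outside both bands.

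The difference between the groups thus depended on which libraries were set side by side. PDL-1 exceeded PSL-1 by a log2 ratio of at least 1 in 2 of the 5 genes, Glyma.06G044400 (2.62) and Glyma.06G185300 (1.79), and PDL-2 exceeded PSL-1 by that much in 4 of 5. Against PSL-2, PDL-1 and PDL-2 each did so in 5 of 5, with medians of 2.80 and 2.69. Against PSL-1 the medians were 0.49 for PDL-1 and 1.39 for PDL-2. Glyma.06G044400 and Glyma.06G185300 were the only genes with a log2 ratio of at least 1 in every one of these 4 pairs of libraries, the smallest being 1.57 and 1.49.

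The wider family was taken as all loci whose description names a gibberellin-regulated protein or a GAST1 homolog. It had 20 loci, all of which passed the filter, and 15 of them are not among the 5 genes. A locus is called higher where limma gave a log2 fold change of 1 or more, and lower where it gave -1 or less, in both cases with an unadjusted p not above 0.05, the thresholds of the study's methods. Over all loci tested, 1.14% were called higher and 0.887% lower in Pi-deprived leaves. Of the 15 other family loci, 2 were called higher and 0 lower, and 3 had an unadjusted limma p of at most 0.05, where 8.93% of all loci tested did. The smallest Benjamini-Hochberg adjusted p among these 15 in limma was 0.471, so none of them passed an adjusted threshold of 0.05, which 19 of all loci did. An exact two-sided permutation test of 2 libraries against 2 cannot give a p below 0.333.

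The 2 called loci differed widely in level. Glyma.04G169600, described as GAST1 protein homolog 4 after the Arabidopsis gene, spans chromosome 4 from 42390279 to 42391271. It had 249.9 and 485 FPKM in PDL-1 and PDL-2, against 182 and 102 FPKM in PSL-1 and PSL-2, and the groups did not overlap. Its log2 fold change was 1.35 (standard error 0.45, limma adjusted p = 0.545). The call was lost without PDL-2, without PSL-1 or without PSL-2, where the log2 fold change was 0.88, 1.77 and 0.93. Glyma.04G179500, on chromosome 4 from 44454545 to 44455954, had 7.82 and 3.99 FPKM in PDL-1 and PDL-2, against 1.98 and 0.984 FPKM in PSL-1 and PSL-2. Its groups did not overlap either, and its log2 fold change was 1.92 (standard error 0.49, limma adjusted p = 0.511). That call was lost without PDL-1 (1.44) or without PSL-2 (1.45).

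**Figure D3:**
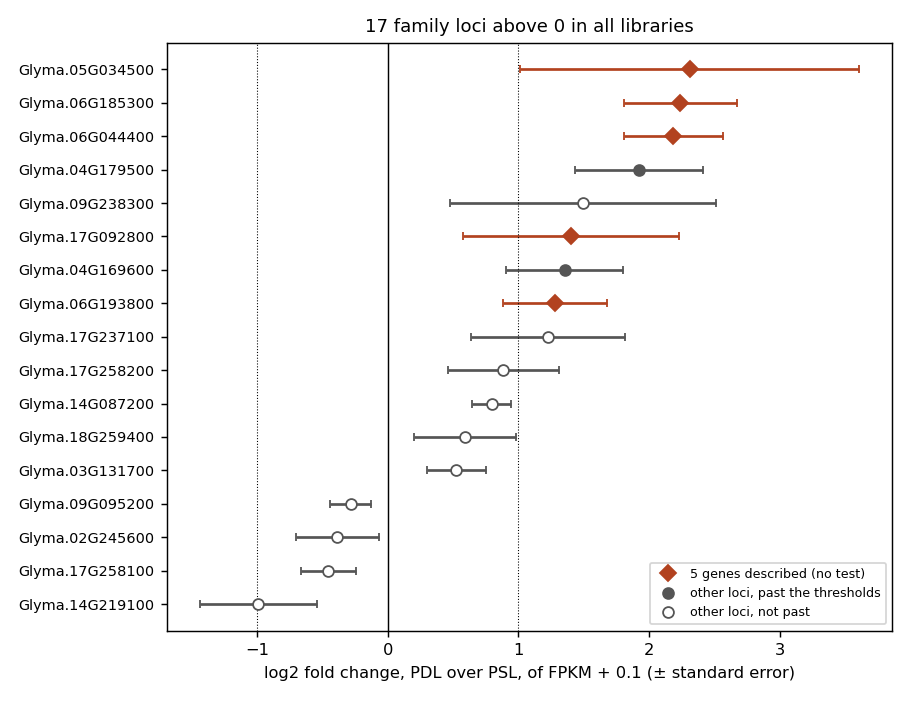
Log2 fold change of FPKM + 0.1, PDL over PSL, with its standard error from limma, for the 17 family loci above 0 FPKM in all libraries, in order of size. Red diamonds are the 5 genes, given with no test, and circles are the 12 other loci, filled where called (Glyma.04G169600 and Glyma.04G179500). Of the 17 values 13 are above 0, and the widest error bar is that of Glyma.05G034500 (1.30).

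The remaining abundant loci of the family differed less or in the other direction. Glyma.17G258200 (GAST1 protein homolog 1), the most abundant family locus in Pi-sufficient leaves, had 335 and 296 FPKM in PDL-1 and PDL-2, against 259 and 113 FPKM in PSL-1 and PSL-2. The groups did not overlap, but the log2 fold change of 0.88 did not reach the thresholds (limma adjusted p = 0.621). Glyma.17G237100 had 154 and 173 FPKM in PDL, against 125 and 39.0 FPKM in PSL, so its log2 fold change of 1.23 rested on PSL-2 (standard error 0.59, adjusted p = 0.620 in limma), and it was 0.39 without that library. Glyma.14G087200 was the steadiest, with 66.6 and 81.8 FPKM in PDL, against 45.2 and 39.998 FPKM in PSL. Its log2 fold change was 0.80 with a standard error of 0.15 (adjusted p = 0.471 in limma). The unadjusted limma p was under 0.05 but the difference was too small for a call.

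Lower values in Pi-deprived leaves were found at 4 loci, none of them called. Glyma.14G219100 (GAST1 protein homolog 1) had 44.5 and 18.7 FPKM in PDL, against 63.4 and 52.3 FPKM in PSL, and its log2 fold change was -0.99 with a standard error of 0.45 (adjusted p = 0.607 in limma). Glyma.17G258100 had 19.97 and 18.6 FPKM in PDL, against 22.1 and 31.7 FPKM in PSL, and Glyma.09G095200 had 36.5 and 41.5 FPKM in PDL, against 53.0 and 42.5 FPKM in PSL. The groups did not overlap at these 3 loci. Glyma.02G245600 was the other locus, at a log2 fold change of -0.39. Glyma.17G258100 and Glyma.17G258200 are neighbours on chromosome 17 (41212478 to 41213509 and 41222784 to 41223668) with values on opposite sides of 0 (-0.45 and 0.88).

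For family loci above 0 FPKM in every library, the log2 fold change had a median of 1.23 (17 loci) and, without the 5 genes, 0.69 (12 loci), against -0.01 over all loci tested. The other 3 loci were Glyma.04G024400 (3.94 and 0 FPKM in PDL, listed at 0 in both PSL libraries), Glyma.20G175800 (2.08 and 0 in PDL, listed at 0 in both PSL libraries) and Glyma.06G024500 (6.01 and 0 in PDL, against 5.52 and 0 in PSL). An FPKM of 0 can be a failed estimate, so no fold of these loci is read, although their fitted values entered the counts over 20 and 15 loci.

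Calls among the 15 other loci depended on single libraries. Without PSL-2, 0 were called higher, where 1.81% of all loci tested in that setting were. Without PSL-1, 4 were called higher (2.44% of all loci), namely Glyma.04G179500, Glyma.09G238300, Glyma.17G237100 and Glyma.17G258200. Without PDL-1, 1 was called higher (1.54% of all loci), Glyma.04G169600, and 1 lower (2.1% of all loci), Glyma.14G219100. Without PDL-2, 3 were called higher (1.61% of all loci), Glyma.04G179500 and the loci Glyma.04G024400 and Glyma.20G175800 that are listed at 0 in both PSL libraries. The summed FPKM of the 20 loci was 1779 in PDL-1 and 1781 in PDL-2, against 1012 in PSL-1 and 595 in PSL-2. Both Pi-deprived libraries thus held nearly the same total, made up differently. Glyma.06G044400 gave 34.3% of it in PDL-1 and 16.6% in PDL-2, against 9.80% in PSL-1 and 14.8% in PSL-2. This total includes the genes chosen for their difference between the groups, so that choice fixed part of its excess in Pi-deprived leaves. Over the 15 other loci the sum was 948 FPKM in PDL-1 and 1145 in PDL-2, against 778 in PSL-1 and 439 in PSL-2.

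**Figure D4:**
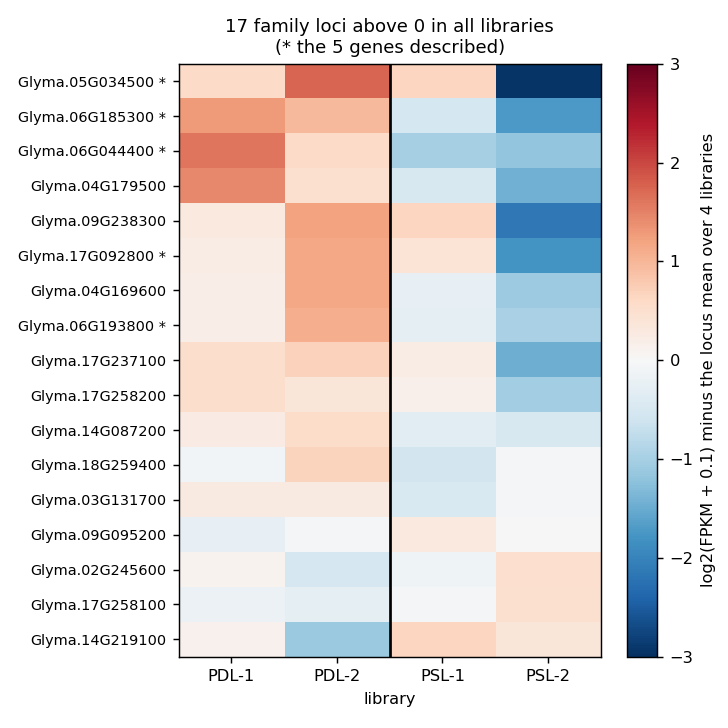
Log2(FPKM + 0.1) of the 17 family loci above 0 in all libraries, each locus minus its own mean over the 4 libraries, with Pi-deprived libraries left of the line and Pi-sufficient libraries right of it. Loci run from the highest to the lowest in Pi-deprived leaves relative to their mean, and stars mark the 5 genes. PSL-2 is the lowest library in the upper rows, where PSL-1 lies between PSL-2 and at least 1 PDL library.

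The soybean genome carries many duplicated segments, and the surroundings of the family loci were compared through the descriptions of the 20 loci on either side, counting only descriptions held by at most 20 loci. Of the 190 pairs of family loci, 160 shared no such description and 21 shared 3 or more. The pairs with 3 or more include the neighbours Glyma.17G258100 and Glyma.17G258200. These shared 20 because their surroundings are largely the same loci, not copies of a segment. Glyma.06G193800 shared the most, 21, with Glyma.04G169600, and this pair also had the most similar pattern over the 4 libraries of all 190 pairs, with a Euclidean distance of 0.14 between their centred log2 values. In both, PDL-2 was highest and PSL-2 lowest. Glyma.06G185300 shared 16 with Glyma.04G179500, whose pattern stood 0.59 away, and PDL-1 was highest and PSL-2 lowest in both. Glyma.05G034500 and Glyma.17G092800 shared 14 with each other, and PDL-2 was highest and PSL-2 lowest in both (distance 1.35). Glyma.06G044400 shared 11 with Glyma.17G237100, whose pattern differed more (distance 1.67). Over the 14 pairs with 3 or more shared descriptions whose loci were above 0 in all libraries the median distance was 1.68, against 1.72 over the other pairs of such loci. With the 3 loci listed at 0 included, the medians were 1.99 and 2.19. These distances are over 4 libraries and are a description. Reads that map to several places can be divided between near-identical copies, so the values of such copies may not be fully independent. Sequence identity within these pairs was not computed, and its part in the distances was not tested.

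The loci beside the 5 genes are given as a description, since only the 5 genes were chosen for their difference between the groups. Among the 5 loci on each side, the median log2 fold change lay between -0.08 and 0.09 around each of the 5 genes. In all, 1 of 43 tested flanking loci was called higher, the undescribed Glyma.05G034800 beside Glyma.05G034500, and 0 were called lower, where 1.14% and 0.887% of all loci tested were. The widest range was also beside Glyma.05G034500, at -2.51 to 1.99, and around the other 4 genes the values ran from -0.97 to 0.54.

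Some genes outside the family had nearly the same pattern as a member over the 4 libraries, among 15509 described loci with a mean of at least 5 FPKM. Closest to Glyma.06G044400 was Glyma.02G267900, a phosphotyrosine protein phosphatase superfamily gene, with 134 and 85.5 FPKM in PDL, against 27.0 and 25.7 FPKM in PSL (distance 0.34). Next was Glyma.11G185300, described as a jojoba acyl CoA reductase-related gene, with 32.0 and 20.3 FPKM in PDL, against 4.43 and 5.13 FPKM in PSL (distance 0.44). Closest to Glyma.06G185300 was Glyma.14G165000, for nitrate reductase 1, the enzyme that reduces nitrate to nitrite, with 14.1 and 19.6 FPKM in PDL, against 4.47 and 2.18 FPKM in PSL (distance 0.58), followed at the same rounded distance by Glyma.10G236700 (a cleavage and polyadenylation specificity factor subunit). These genes share with their member the contrast the member was chosen for.

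Closest to Glyma.06G193800 were Glyma.08G152800, a leucine-rich repeat gene (distance 0.21), and Glyma.13G034000, an NAD(P)-binding Rossmann-fold gene (0.26). For Glyma.17G092800 they were Glyma.17G208200, of the DUF642 family of wall proteins (0.37), and Glyma.04G243000, a thiamin diphosphate-binding gene (0.42). Glyma.05G034500 had no neighbour as close. A lipid-transfer protein superfamily gene, Glyma.13G160400, was at 0.65, with 12.6 and 50.8 FPKM in PDL, against 17.9 and 1.73 FPKM in PSL, and a serine carboxypeptidase-like gene, Glyma.02G158400, at 0.96.

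Loci of the lists for gibberellin synthesis, inactivation and DELLA or other GRAS proteins were not called in either direction in the fit described here. Of 10 tested loci for gibberellin synthesis, 0 were called and the median log2 fold change was 0.19. By limma's unadjusted p, 1 of them was under 0.05: Glyma.15G002200 (GA requiring 3, an oxidase of an early step of the pathway) had 4.22 and 5.01 FPKM in PDL, against 2.13 and 2.49 FPKM in PSL. The groups did not overlap, at a log2 fold change of 0.96 with a standard error of 0.19 (adjusted p = 0.471 in limma). The study's own test, at the same thresholds, listed this gene as up-regulated. The other tested locus described as GA requiring 3, Glyma.13G371400, had a log2 fold change of -0.05. Of 5 tested gibberellin 2-oxidase loci, which inactivate the hormone, 0 were called and 0 had an unadjusted limma p under 0.05. Of 92 tested loci matched by the DELLA and GRAS list, 0 were called and 8 had an unadjusted limma p under 0.05, where 8.93% of all loci did, with a median of -0.08. The list consists mostly of other GRAS genes, such as the scarecrow-like ones, and it also took 26 loci through words such as inorganic. Without them 0 of 76 tested loci were called and 6 had an unadjusted limma p under 0.05. Among tested loci described as RGA-like 2, a DELLA, Glyma.11G216500 had 159 and 156 FPKM in PDL, against 125 and 132 FPKM in PSL. Its log2 fold change was 0.29 (limma adjusted p = 0.546). The log2 fold change was 0.09 for Glyma.18G040000 and -0.13 for Glyma.15G141400, which are also described as RGA-like 2. No description matched the words for the gibberellin receptor. Over the lists together, 0 of 107 tested loci were called with all 4 libraries, where 2.03% of all loci were called in either direction. With no filter on low values 2 were called (2.64% of all loci), and without the mean-variance trend 1 was called (2.24% of all loci). Calls were 1 without PDL-1, 1 without PDL-2, 3 without PSL-1 and 2 without PSL-2, settings in which 3.05% to 4.09% of all loci were called.

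The libraries expressed leaf genes, with 50 loci for light-harvesting proteins and the small subunit of Rubisco summing to 160200 and 161775 FPKM in PDL-1 and PDL-2, against 124572 and 136484 FPKM in PSL-1 and PSL-2, and 0 of 47 tested loci called. In whole leaves, fewer cells of a type and less RNA per cell cannot be told apart. A list for the guard cell lineage held 10 loci for SLAC1 homologues and MYB60, which summed to 58.9 and 62.2 FPKM in PDL, against 52.3 and 52.0 FPKM in PSL, with 0 of 6 tested loci called. It also held 2 loci for stomagen, a peptide made in the mesophyll that acts on the epidermis, and both were called higher. Glyma.08G345100 had 8.23 and 9.55 FPKM in PDL, against 4.41 and 3.59 FPKM in PSL, and Glyma.18G152800 had 1.32 and 3.45 FPKM in PDL, with both PSL libraries listed at 0. The epidermal list (4 loci for protodermal factor 2) was close to the floor in every library, its sum 0.417 and 0.582 FPKM in PDL, against 0.803 and 0.794 FPKM in PSL, with 0 of 2 tested loci called. Of 32 tested loci for dividing cells 0 were called, and the whole list summed to 89.7 and 91.3 FPKM in PDL, against 87.5 and 81.4 FPKM in PSL. Xylem markers had 1 of 25 tested loci higher (Glyma.04G014700), phloem markers 1 of 31 lower (Glyma.19G231000) and root-related genes 1 of 12 lower (a locus of Glyma.08G198000 with Glyma.08G198100). Over all loci tested 1.14% were called higher and 0.887% lower, and no change in a cell type is read from the counts of these lists. The summed xylem level was 75.9 and 39.1 FPKM in PDL, against 38.7 and 53.7 FPKM in PSL. Their part in the levels of the 5 genes was not tested.

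The FPKM values are already scaled per library, so their medians cannot show a library effect. Each library had a median of 6.07 to 6.10 FPKM over the tested loci, and 35517 to 36536 loci above 0. Read counts are not in the table. Among loci under 0.3 FPKM in both libraries of a group, the log2 ratio of replicate 1 to replicate 2 fell most often between 0.3 and 0.4 in PDL and between -0.4 and -0.3 in PSL, steps that place PDL-1 below PDL-2 and PSL-2 below PSL-1 in depth. Counting error cannot be given per gene.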

How the data were processed

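Leaf RNA of 2 Pi-deprived (PDL) and 2 Pi-sufficient (PSL) samples was sequenced as paired ends from poly(A) RNA. The authors aligned reads, after quality filtering (FASTX-toolkit, FastQC), to Gmax2.0 with TopHat on a Bowtie2 index, allowing up to 40 alignments a read and at most 2 mismatches. Cufflinks and Cuffdiff then gave the FPKM of each locus and library. Versions are not given in the sources used here. The deposited FPKM values are normalized estimates, not counts. The table also holds the authors' pooled FPKM, fold changes and p-values, which were not used.

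Loci with a mean of at least 0.3 FPKM (32686 of 39505) were put on a log2(FPKM + 0.1) scale and fitted together across all genes in limma 3.58.1 under R 4.3.3, using eBayes with trend and no covariate, and p-values were Benjamini-Hochberg adjusted over all of them. Fold changes on this scale understate those of low loci. The code was tested on simulated data. Other computing used Python 3.11.15, numpy 2.4.6, pandas 2.3.3 and matplotlib 3.10.9.

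Groups come from the sample titles. The genes and the word lists on descriptions were chosen with earlier results of these data known. Named were the 5 genes, other family loci called or with a mean of at least 10 FPKM, the 2 nearest patterns per gene and any called gibberellin gene. Every other locus was named after its values were seen. None of the 59048 RefSeq entries (Glycine_max_v4.0) held carries the names of the 5 genes (0 matched), so no sequences are shown. Alternatives were pseudocounts of 1 and 0.01, a filter at 1 FPKM and none, quantile normalization, median centring, no trend, a replicate block and leaving out each library.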

Additional observations from a re-analysis of the deposited data

How the results depend on the processing

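The 5 genes had a positive log2 fold change in all 12 alternative settings. They were chosen from this contrast, and the filter, trend and block settings leave the value unchanged, so nothing is read from the sign. With a library left out the values ran from 1.66 to 2.71 in Glyma.06G044400, 1.64 to 2.84 in Glyma.06G185300, 0.83 to 1.73 in Glyma.06G193800, 0.52 to 4.11 in Glyma.05G034500 and 0.30 to 2.50 in Glyma.17G092800. Calls in the family, 5 as reported with the genes chosen from this contrast included, were 3 without the mean-variance trend and 1 to 8 with a library left out. Among the 15 other loci, 2 as reported, they were 1 with quantile normalization, 1 without the trend and 0 to 4 with a library left out. Over all loci, 663 were called as reported, 365 with a pseudocount of 1, 1041 with no filter and 994 to 1328 with a library left out. Gibberellin pathway calls, 0 as reported, were 2 with no filter and 1 without the trend, where 2.64% and 2.24% of all loci were called. The cause of these shifts was not tested, except that no filter tests more loci. All these counts take both directions together. The family count as reported includes 3 of the 5 genes, called on the values they were chosen for, so nothing is read from the family counts. Of all loci, 2.03% were called as reported, 2.01% with quantile normalization and 2.24% without the trend. With a library left out 1 library remains in a group, so nothing is read from those counts either.

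The replicate numbers are shared by both groups, but nothing says that they pair the libraries, and the deviations of same-numbered libraries correlated at -0.08 over the loci tested. With a replicate block 1 of the 15 other family loci was called, where 2.03% of all loci were. Of the other loci, Glyma.04G169600 was no longer called in that fit.

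With 2 libraries in each group and no read counts, the differences of the 5 genes cannot be firmly separated from replicate spread. In Glyma.05G034500 and Glyma.17G092800 the groups overlap. In the other 3 genes they do not, but both PDL libraries lay above both PSL libraries at 20.2% of all loci tested. The numbers of plants behind each library limit the precision further.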
